A study of Mus musculus with 24 samples.

Results

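The following 10 genes were studied: Scd1, Scd2, Fasn, Acaca, Acly, Acss2, Elovl6, Fads1, Fads2 and Me1. They encode enzymes that make, elongate or desaturate fatty acids or supply acetyl-CoA or NADPH for their synthesis. They were chosen by name, matched by symbol to the Ensembl identifiers of the count table, and all 10 were found among its 46517 gene entries and among the 14866 genes that had enough reads to test. The cells were βTC3, an insulinoma line from the Rip-Tag2 mouse, whose pancreatic neuroendocrine tumours arise from beta cells. Each culture carried the plasmid PB-31 alone (control line), PB-31 with the miR-23b cluster (miR-23b line) or PB-31 with miR-137 (miR-137 line). Polyadenylated RNA was sequenced from 3 libraries in each of 8 groups, 24 libraries in all. The control line was grown for 7 d in regular medium (no DOX) or 7 d with doxycycline at 2 µg/ml (DOX). Both miRNA lines had these conditions and a further one, in which 7 d of doxycycline were followed by 7 d in regular medium (withdrawn), so that these cultures had been grown for 14 d.

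Dates, plates and sequencing runs are not in the labels, so where no DOX cultures serve as the reference, doxycycline cannot be told apart from a batch that they share. No withdrawn control culture and no untreated culture kept for 14 d was analysed here. The labels say that wells were plated in triplicate, so the p-values measure the spread between 3 libraries that may be technical replicates of 1 culture. In bulk RNA, fewer cells with a transcript and less of it per cell cannot be told apart.

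New fatty acids are built from citrate that leaves the mitochondrion. ATP citrate lyase (Acly) turns it into cytosolic acetyl-CoA, and Acss2 makes the same product from acetate. Acetyl-CoA carboxylase 1 (Acaca) commits acetyl-CoA to malonyl-CoA, fatty acid synthase (Fasn) assembles palmitate with NADPH that malic enzyme (Me1) helps supply, and Elovl6 extends palmitate to stearate. Stearoyl-CoA desaturases (Scd1, Scd2) place the first double bond, while Fads1 and Fads2 are the delta-5 and delta-6 desaturases of polyunsaturated fatty acids. Many of these genes are known targets of the sterol-responsive factors SREBP1 and SREBP2, and beta cells need the balance of saturated and unsaturated fatty acids for their membranes and secretory granules.

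In GRCm38 the desaturase genes sit in clusters on chromosome 19. Scd2 (chr19:44293674-44306864, plus strand) lies between Scd3 and Scd4, and Scd1 (chr19:44394455-44407879, minus strand) follows Scd4. Fads1 (chr19:10182888-10196877, plus) and Fads2 (chr19:10062765-10101746, minus) follow Fads3 in the order Fads3, Fads2, Fads1. Fasn (chr11:120805846-120824547, minus), Acly (chr11:100476353-100528000, minus) and Acaca (chr11:84129672-84401651, plus) are on chromosome 11. Acss2 is at chr2:155517948-155585724 (plus), Elovl6 at chr3:129532355-129638495 (plus) and Me1 at chr9:86581371-86695953 (minus). Reads that aligned to more than 1 place were not counted, so values of the similar Scd genes are less certain than those of the single-copy genes.

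The sequences that bear on these lines are the induced miRNAs, since a miRNA lowers transcripts that pair with its seed. The members of the cluster are miR-23b, miR-27b and miR-24. Mature sequences from RefSeq (GRCm38.p6) were at hand for the 3p arms of miR-27b (chr13:63300760-63300780, plus), miR-24 (chr13:63301251-63301272, plus) and miR-137 (chr3:118433901-118433923, plus). They are printed with the seed, bases 2 to 8, in capitals, and each has a seed of its own. miR-23b-3p was not searched.
miR-27b-3p: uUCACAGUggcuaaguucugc
miR-24-3p: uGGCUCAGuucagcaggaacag
miR-137-3p: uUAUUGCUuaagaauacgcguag

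The longest annotated 3′ UTR of each of the 10 genes (GENCODE M21) was searched on the transcript strand for the reverse complement of these seeds, ACTGTGA for miR-27b, CTGAGCC for miR-24 and AGCAATA for miR-137. Matches are in capitals, with up to 11 flanking bases before and 2 after. Positions count from 1 at the first base after the stop codon.
Scd2, miR-27b, position 3245: cgcctaacaatACTGTGAct
Fasn, miR-27b, position 1127: agtatgtgaccACTGTGAga
Elovl6, miR-27b, position 3103: ttctagtgtcaACTGTGAgg
Fads1, miR-27b, position 1650: tctcagccttcACTGTGAca
Fasn, miR-24, position 260: caggagccaaaCTGAGCCtt
Acaca, miR-24, position 1293: agtacttcagtCTGAGCCtt
Acly, miR-24, position 1: CTGAGCCAg

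Thus Scd2, Fasn, Elovl6 and Fads1 hold a miR-27b heptamer, and Fasn, Acaca and Acly a miR-24 heptamer. In Acly the match is followed by an A, which makes it an 8mer. Scd1, Acss2, Fads2 and Me1 hold neither, and none of the 10 holds the miR-137 heptamer. Of 12985 tested genes with a 3′ UTR, 17.9% hold the miR-27b heptamer, 19.6% that of miR-24 and 10.6% that of miR-137. Long UTRs hold it more often: among genes with a UTR within 20% of the length of that of Elovl6 (5005 bases) 43.5% hold the miR-27b heptamer, against 24% at the length of Fasn (2008 bases). A match of letters is a description, and pairing was not tested.

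Levels are given as CPM, the reads of a gene scaled to all gene reads of its library, after TMM scaling of libraries against each other. Between genes they are compared per kilobase of the principal transcript. In the control line without DOX, Acly was the highest of the 10 at 622 ± 25.0 CPM per kb (SD, n = 3), followed by Scd2 at 430 ± 7.12 and Fads1 at 231 ± 2.30. Fads2 stood at 90.6 ± 1.60. Fasn at 64.4 ± 3.86 and Scd1 at 63.5 ± 1.60 lay within each other's spread. Acss2 (22.7 ± 0.961), Me1 (17.2 ± 0.154) and Acaca (8.34 ± 0.134) were lower, and Elovl6 was the lowest at 2.71 ± 0.327. On the TPM scale of the authors' other table, whose length term differs between genes in a way the sources do not explain, the order was partly another. There Acly (1721 ± 83.2) and Scd2 (218 ± 5.17) were again highest, but Fasn (112 ± 4.71) lay above Scd1 (35.8 ± 1.21), and so did Acaca (49.99 ± 2.37), Acss2 (48.2 ± 2.20) and Me1 (46.4 ± 1.49). Scd2 was above Scd1 on both scales.

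**Figure D1:**
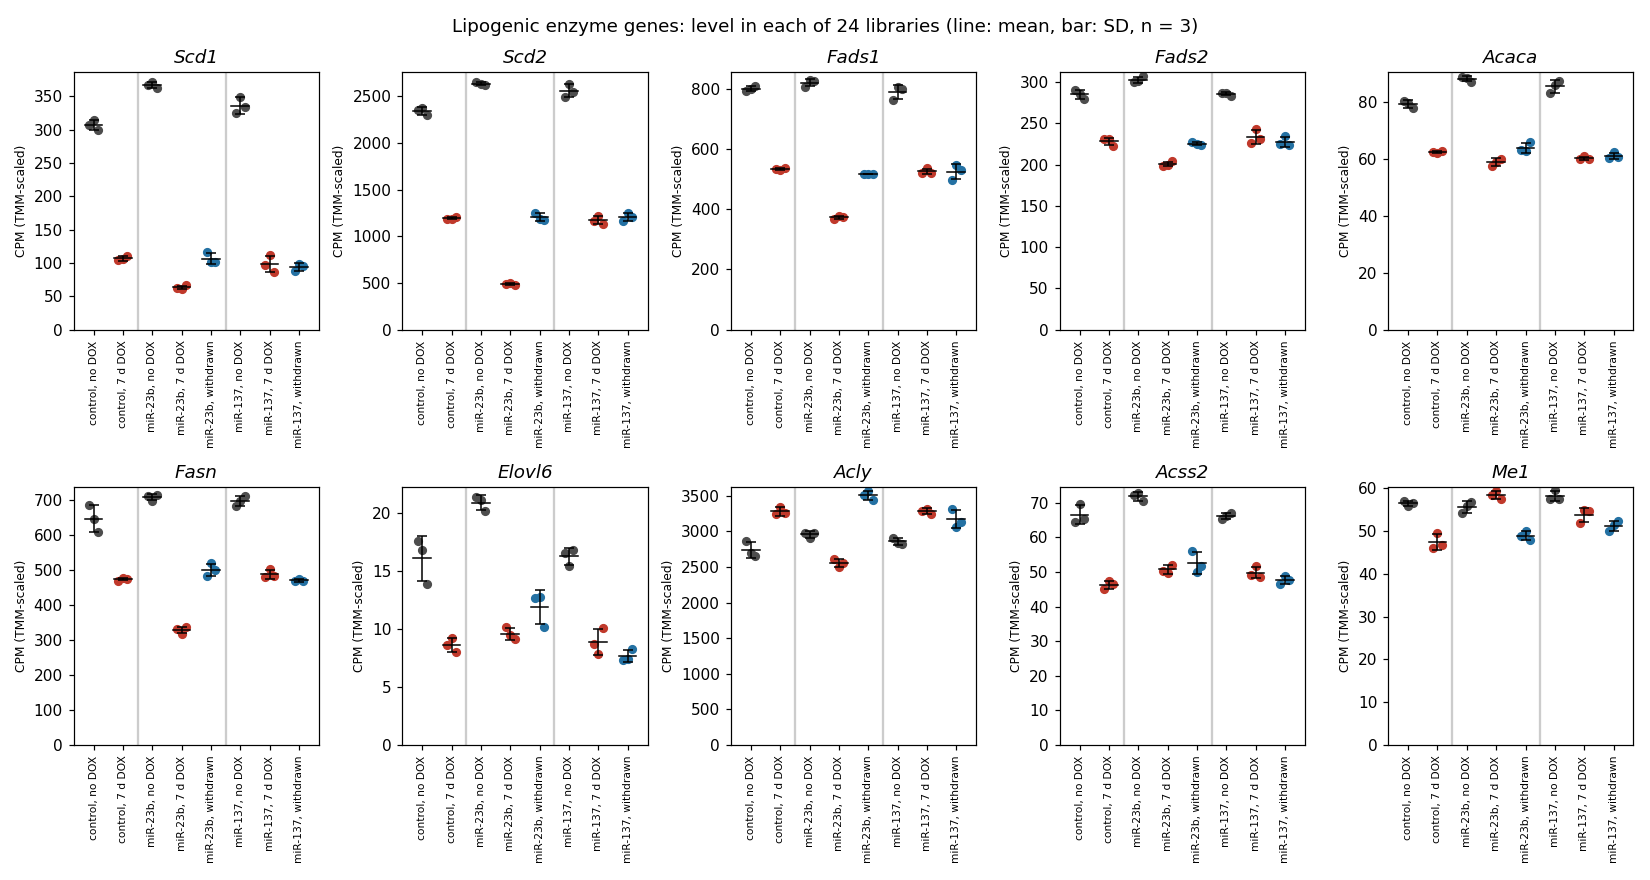
Level of each of the 10 genes in every library (vertical axis, TMM-scaled CPM from 0; horizontal axis, the 8 groups; grey no DOX, red 7 d DOX, blue withdrawn; line and bar, mean and SD of 3 libraries). In 8 of the panels the no DOX libraries are the highest of their line; Acly is higher with DOX in the control and miR-137 lines, and Me1 changes little.

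Scd1 showed the widest range, 5.81-fold between its highest and lowest group. The 3 libraries of the control line held 307, 314 and 299 CPM without DOX and 104, 105 and 111 with DOX. Those of the miR-137 line held 325, 349 and 334 without DOX, 96.3, 111 and 87.1 with DOX and 88.1, 98.6 and 94.9 after withdrawal. Those of the miR-23b line held 367, 371 and 363 without DOX, 61.9, 61.5 and 66.2 with DOX and 116, 102 and 101 after withdrawal. The no DOX libraries thus lay far above all others, and the miR-23b line with DOX lay below all others. The remaining 4 groups lay between 87.1 and 116 CPM.

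Scd2 had a 5.41-fold range, again with the no DOX groups highest and the miR-23b line with DOX lowest. Its libraries held 2355, 2375 and 2300 CPM in the control line without DOX and 1188, 1186 and 1205 with DOX. In the miR-23b line they held 2654, 2635 and 2622 without DOX, 493, 495 and 474 with DOX and 1254, 1190 and 1172 after withdrawal. In the miR-137 line they held 2498, 2638 and 2546 without DOX, 1162, 1220 and 1133 with DOX and 1160, 1246 and 1205 after withdrawal. The DOX and withdrawn cultures overlapped except for the miR-23b line with DOX, which was lower than all of them.

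Fasn and Fads1 had a range of 2.15-fold and 2.20-fold. Fasn held 686, 646 and 609 CPM in the control line without DOX and 470, 478 and 476 with DOX, against 713, 698 and 715 and then 332, 319 and 336 in the miR-23b line. Fads1 held 793, 800 and 809 and then 533, 528 and 537 in the control line, against 806, 828 and 825 and then 366, 377 and 374 in the miR-23b line. For both genes the DOX groups of the 2 lines did not overlap. Without DOX the 2 lines overlapped for Fads1, while for Fasn the miR-23b libraries lay a little above those of the control line.

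Acly had another order. It held 2859, 2692 and 2651 CPM in the control line without DOX and 3238, 3345 and 3256 with DOX. In the miR-23b line it held 2983, 2904 and 2983 without DOX, 2618, 2505 and 2558 with DOX and 3517, 3563 and 3441 after withdrawal. It was thus higher with DOX in control cells, lower with DOX in the miR-23b line, and at its highest of the 8 groups after the miR-23b line had been taken off DOX. Me1 stayed within 1.23-fold, from 47.4 ± 1.82 CPM in control cells with DOX to 58.4 ± 0.931 in the miR-23b line with DOX. Acaca (1.5-fold), Fads2 (1.51-fold), Acss2 (1.55-fold) and Elovl6 (2.73-fold) had their highest group mean in the miR-23b line without DOX.

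Together the 10 genes made up 7335 ± 175 CPM in the control line without DOX and 5980 ± 58.6 with DOX. In the miR-23b line the sum went from 8029 ± 45.1 to 4191 ± 55.8 and, after withdrawal, to 6239 ± 93.1. In the miR-137 line it went from 7754 ± 82.1 to 5975 ± 121 and, after withdrawal, to 5857 ± 48.7. The sum is dominated by Acly and Scd2.

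Control cells, which carry no added miRNA, already had lower levels of most of these genes with DOX. Of the 10, 9 were lower and Acly was higher. Among all genes 19.3% were called lower and 18.5% higher in this comparison by edgeR's quasi-likelihood test at a Benjamini-Hochberg adjusted p below 0.05. The stearoyl-CoA desaturases fell most, Scd1 2.88-fold (log2 fold change -1.52, SE 0.05, n = 3) and Scd2 1.96-fold (-0.97, SE 0.03). The elongase Elovl6 followed at -0.90 (SE 0.09), then the delta-5 desaturase Fads1 at -0.59 (SE 0.03). Acss2 (-0.52, SE 0.04), Fasn (-0.45, SE 0.03), Acaca (-0.35, SE 0.04), Fads2 (-0.32, SE 0.03) and Me1 (-0.25, SE 0.04) fell less. Acly rose by 0.26 (SE 0.03). The median over the 10 was -0.48, against 0.01 over all genes. The 3 control libraries with DOX also held more detected genes, 20898 to 21066 with at least 1 count against at most 20336 in the other 21 libraries, and the part of this in the result was not tested.

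The response of the miR-137 line was close in size to that of control cells. Again 9 of the 10 were lower and Acly was higher, where 21.8% of all genes were called lower and 21% higher. Scd1 fell 3.41-fold (-1.77, SE 0.05, n = 3) and Scd2 2.19-fold (-1.13, SE 0.03). Elovl6 changed by -0.88 (SE 0.09), Fads1 by -0.59 (SE 0.03), Fasn by -0.52 (SE 0.03), Acaca by -0.51 (SE 0.04), Acss2 by -0.41 (SE 0.04) and Fads2 by -0.29 (SE 0.03). Acly rose by 0.20 (SE 0.03). Me1 was called at -0.11 (SE 0.04, adjusted p 0.0185 by edgeR's quasi-likelihood test), a call that was lost without DOX replicate 1 (adjusted p 0.129) or without no DOX replicate 2 (0.104) and under DESeq2 (0.0642). The median over the 10 was -0.51, against 0.00 over all genes.

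The difference between the responses of the miR-137 and control lines was small, and its calls lay near the threshold. Scd1 (-0.24, SE 0.07), Scd2 (-0.15, SE 0.04) and Acaca (-0.16, SE 0.05) fell further in the miR-137 line, and 0 of the 10 were called higher, against 4.78% of all genes called lower and 5.9% higher. The adjusted p from edgeR's quasi-likelihood test was 0.0230, 0.0208 and 0.0319 for these genes. All 3 calls were lost on leaving out control DOX replicate 3, control no DOX replicate 3, miR-137 DOX replicate 1 or 3, or miR-137 no DOX replicate 2. The differences kept their sign in each of these fits. For the other 7 genes the difference lay between -0.07 (Fasn, SE 0.05) and 0.14 (Me1, SE 0.06). Fads1 differed by 0.00 (SE 0.04). Starting levels enter these differences. Without DOX, Scd1, Scd2 and Acaca stood at 336, 2561 and 85.5 CPM in the miR-137 line and at 307, 2343 and 79.3 in the control line. With DOX they stood at 98.3, 1172 and 60.2 CPM against 107, 1193 and 62.4.

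The fall with DOX was deeper in the miR-23b line. Of the 10, 9 were lower and none was called higher, where 28.6% of all genes were called lower and 28.8% higher. Scd1 fell 5.82-fold (-2.54, SE 0.05, n = 3) and Scd2 5.41-fold (-2.43, SE 0.03), so that Scd2 went from 2637 ± 16.2 to 488 ± 11.6 CPM. Fads1 (-1.14, SE 0.03), Elovl6 (-1.12, SE 0.09) and Fasn (-1.11, SE 0.03) fell by more than 2-fold. Fads2 (-0.59, SE 0.03), Acaca (-0.58, SE 0.04), Acss2 (-0.51, SE 0.04) and Acly (-0.21, SE 0.03) fell less. Me1 was at 0.07 (SE 0.04, adjusted p 0.117 by edgeR's quasi-likelihood test). It was called higher, at 0.13, when libraries were scaled by total counts alone, and at 0.10 on the TPM scale. The median over the 10 was -0.85, against 0.01 over all genes.

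Tested directly, the miR-23b response exceeded the control response for most of the 10. Of the 10, 7 had a lower response and Me1 a higher one, where 19.4% of all genes were called lower and 18.1% higher. Among the 7 is Acly, which rose in control cells and fell in the miR-23b line. Scd2 had the largest difference, -1.46 (SE 0.05, 2.75-fold), ahead of Scd1 at -1.02 (SE 0.07, 2.02-fold). Fasn followed at -0.66 (SE 0.05), then Fads1 at -0.55 (SE 0.04) and Acly at -0.47 (SE 0.04). Fads2 (-0.27, SE 0.04) and Acaca (-0.24, SE 0.05) differed less, and Acaca was not called on the TPM scale (-0.12). Me1 differed by 0.33 (SE 0.06). Acss2 (0.02, SE 0.06) and Elovl6 (-0.22, SE 0.13) were not called. For Acss2 the response was thus of like size in both lines, -0.52 in control cells and -0.51 in the miR-23b line. Among the genes with a miR-27b heptamer, Scd2, Fasn and Fads1 fell further than in control cells and Elovl6 was not called. Of those with a miR-24 heptamer, Fasn and Acaca fell further, and Acly fell (-0.21) where it had risen in control cells (0.26). Of the genes with neither, Scd1 and Fads2 fell further, Acss2 was not called and Me1 was higher. Matches to miR-23b-3p were not searched, and the part of any match in the response was not tested.

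The miRNA lines were also compared with each other, in a contrast that uses no control group. Of the 10, 6 had a lower response in the miR-23b line and Me1 a higher one (0.19, SE 0.06). Among all genes 18.4% were called lower and 16.8% higher. The 6 include Acly, which rose in the miR-137 line and fell in the miR-23b line. The differences were -1.31 for Scd2 (SE 0.05), -0.77 for Scd1 (SE 0.07), -0.59 for Fasn (SE 0.05), -0.55 for Fads1 (SE 0.04), -0.41 for Acly (SE 0.04) and -0.30 for Fads2 (SE 0.04). Acaca, called against control cells, was not called here (-0.08, SE 0.05), and neither were Acss2 (-0.10, SE 0.06) and Elovl6 (-0.25, SE 0.13).

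**Figure D2:**
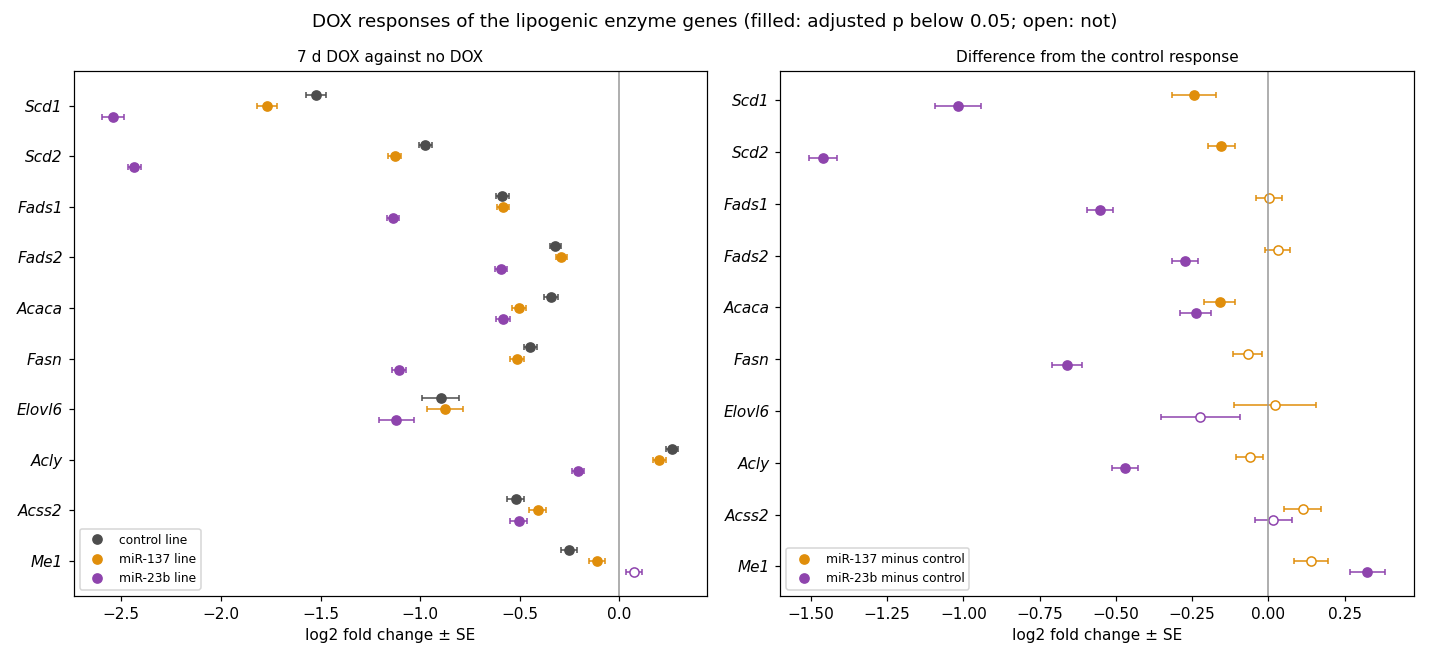
Left, log2 fold change of 7 d DOX against no DOX for the 10 genes in the 3 lines; right, the difference of each miRNA line from the control response (horizontal axes, log2 fold change; bars, SE; filled points, adjusted p below 0.05). The purple points of the miR-23b line lie furthest to the left for Scd1 (-2.54) and Scd2 (-2.43), and the orange differences of the miR-137 line lie within 0.25 of 0.

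After 7 d without DOX the genes rose again in the miR-23b line, in part. Of the 10, 8 were higher than with DOX and Me1 was lower, where 26.4% of all genes were called higher and 25.8% lower. Scd2 rose 2.47-fold (1.31, SE 0.03, n = 3), Scd1 by 0.76 (SE 0.06), Fasn by 0.61 (SE 0.03), Fads1 by 0.47 (SE 0.03) and Acly by 0.45 (SE 0.03). Elovl6 (0.31, SE 0.10), Fads2 (0.17, SE 0.03) and Acaca (0.12, SE 0.04) were also called, with Elovl6 losing its call without withdrawn replicate 1 (adjusted p 0.0646 by edgeR's quasi-likelihood test). Acaca lost its call with total count scaling (adjusted p 0.0678) and without a filter on low counts (0.0522), by the same test. On the TPM scale Elovl6, Fads2 and Acaca were not called. Me1 changed by -0.26 (SE 0.04), and Acss2 stood at 0.06 (SE 0.04). As a share of the log2 fall with DOX, Fasn regained 54.8%, Scd2 53.6%, Fads1 41.6%, Scd1 29.8%, Fads2 28%, Elovl6 27.9% and Acaca 20.7%. Acly went past its starting level.

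None of the 10 was called in the miR-137 line on withdrawal, by edgeR's quasi-likelihood test, by DESeq2 or by limma on the TPM scale, and 0 had an unadjusted p below 0.05. Across all genes 14.8% were called lower and 14.7% higher in the same comparison. The changes lay between -0.21 (Elovl6, SE 0.10) and 0.04 (Scd2, SE 0.03), with Scd1 at -0.07 (SE 0.05) and Fasn at -0.05 (SE 0.03). Without DOX replicate 3 Scd1 was called at -0.15, and without withdrawn replicate 1 Acly at -0.09.

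Against cultures never given DOX, both withdrawn lines still had low levels. For the miR-23b line 9 of the 10 were lower and Acly was higher, against 20.6% of all genes lower and 19.2% higher. Scd1 remained 3.45-fold lower (-1.78, SE 0.05) and Scd2 2.19-fold (-1.13, SE 0.03). Elovl6 stood at -0.81 (SE 0.09), Fads1 at -0.66 (SE 0.03), Fasn at -0.50 (SE 0.03) and Acly at 0.25 (SE 0.03). For the miR-137 line the count was the same, 9 lower and 1 higher, against 21.7% of all genes lower and 21.6% higher. There Scd1 stood at -1.84 (SE 0.05), Elovl6 at -1.08 (SE 0.09), Scd2 at -1.09 (SE 0.03) and Acly at 0.15 (SE 0.03).

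Levels after withdrawal were set beside those of control cells with DOX. Scd2 stood at 1205 ± 42.8 CPM in the withdrawn miR-23b line, 1204 ± 43.1 in the withdrawn miR-137 line and 1193 ± 10.5 in control cells with DOX. Scd1 stood at 106 ± 8.37, 93.9 ± 5.34 and 107 ± 3.45 CPM in the same groups, Fads1 at 517 ± 0.866, 524 ± 25.8 and 533 ± 4.44, and Fads2 at 225 ± 1.89, 228 ± 6.23 and 228 ± 4.53. The withdrawn miR-23b libraries overlapped those of control cells with DOX for Scd1, Scd2, Fads2 and Me1 and lay below them for Fads1. They lay above them for Elovl6 (11.9 ± 1.48 against 8.63 ± 0.598 CPM), Acly (3507 ± 61.4 against 3280 ± 57.5), Fasn (501 ± 18.1 against 475 ± 4.03), Acss2 (52.6 ± 3.17 against 46.3 ± 1.2) and Acaca (64.0 ± 1.73 against 62.4 ± 0.282). For Acaca the margin was small, from a highest control library of 62.7 to a lowest withdrawn library of 62.9 CPM. How many of all genes overlap between these groups was not counted, so the sorting is not a trait particular to the 10. These groups differ in line, in days of culture and in DOX at harvest, and no test of them was made.

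**Figure D3:**
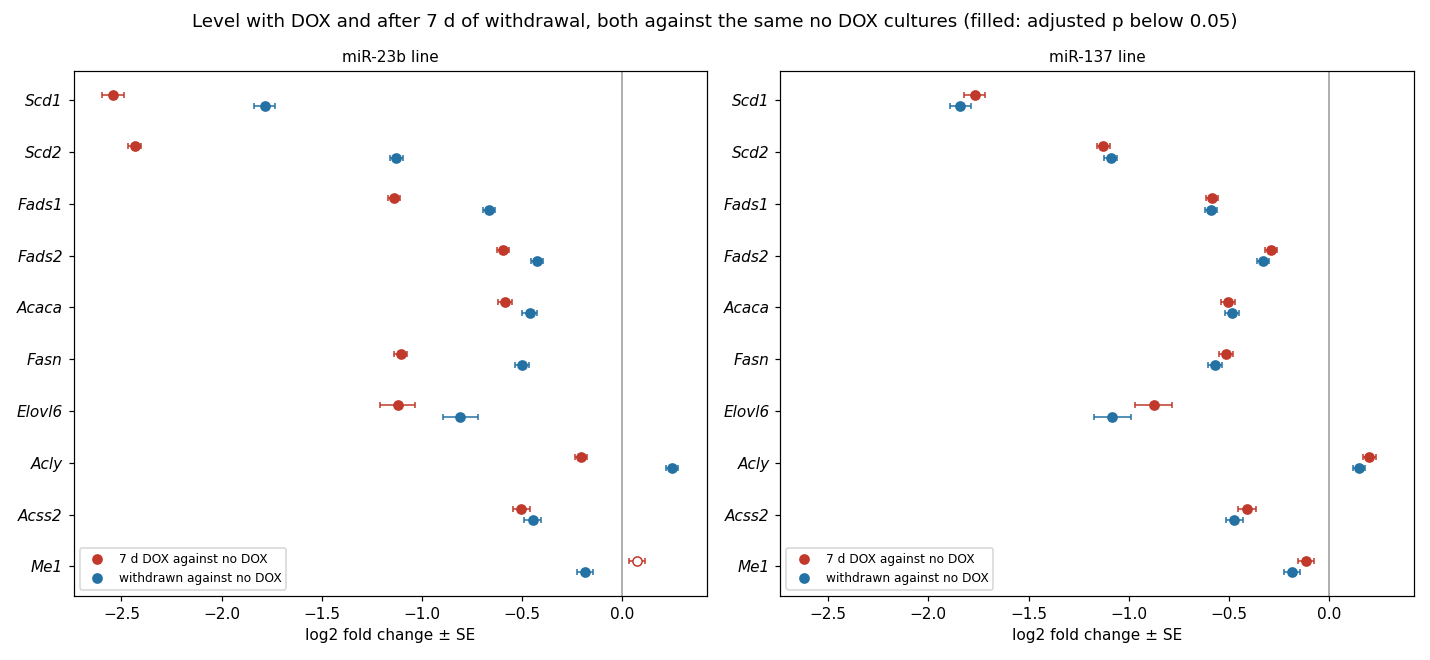
Log2 fold change against the no DOX cultures of the same line (horizontal axis; bars, SE) for the 10 genes with 7 d DOX (red) and after withdrawal (blue), in the miR-23b line (left) and the miR-137 line (right). In the miR-23b line Scd2 moves from -2.43 to -1.13 and Acly crosses 0, while the points of the miR-137 line stay close together.

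Before induction the lines differed a little. In the miR-23b line without DOX 6 of the 10 were higher than in the control line and 0 lower, where 3.59% of all genes were called higher and 2.78% lower. They were Elovl6 (0.38, SE 0.08), Scd1 (0.26, SE 0.05), Scd2 (0.17, SE 0.03), Acaca (0.15, SE 0.03), Fasn (0.13, SE 0.03) and Acly (0.11, SE 0.03). Without control no DOX replicate 3, 3 of them were called, and on the TPM scale 2. Scd2 alone was called higher in the miR-137 line (0.13, SE 0.03) and 0 of the 10 lower, against 1.89% and 0.814% of all genes. That call was lost on leaving out any of control no DOX replicates 1, 2 and 3 or miR-137 no DOX replicates 2 and 3, with an adjusted p of up to 0.140 by edgeR's quasi-likelihood test. The responses to DOX are measured from these starting levels.

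The genes around the 10 were read from lists written from general knowledge, with up to 3 called genes named in each direction. The counts of each list stand against all genes, of which 19.3% were lower and 18.5% higher in control cells, 28.6% and 28.8% in the miR-23b line, and 21.8% and 21% in the miR-137 line. Of 16 tested regulators of lipogenesis, 8 were lower and 2 higher with DOX in control cells, 9 and 5 in the miR-23b line, and 8 and 3 in the miR-137 line. Insig1, which holds the SREBP precursors in the endoplasmic reticulum and is itself an SREBP target, changed by -1.52 on the log2 scale in control cells, -2.83 in the miR-23b line and -1.70 in the miR-137 line. Srebf1, which encodes SREBP1, fell from 290 ± 9.96 to 209 ± 4.44 CPM in control cells (-0.47, SE 0.04) and from 274 ± 6.64 to 134 ± 7.28 in the miR-23b line (-1.03, SE 0.04). Srebf1 changed by -0.46 (SE 0.04) in the miR-137 line. The direct test of the miR-23b against the control response gave -0.56 (SE 0.05) for Srebf1 and -1.32 (SE 0.06) for Insig1. Pparg, an adipogenic receptor gene at low level here (3.54 ± 0.190 CPM in control cells without DOX), changed by -0.83, -2.08 and -0.93 in the control, miR-23b and miR-137 lines. Nr1h3, which encodes the oxysterol receptor LXR-alpha, rose in the miR-23b line (0.77, SE 0.16) and in the miR-137 line (0.63, SE 0.19), and was at 0.11 (SE 0.17) in control cells.

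On withdrawal in the miR-23b line Insig1 rose by 1.54 (SE 0.05), Pparg by 1.19 (SE 0.26) and Mlxipl, which encodes the glucose-responsive factor ChREBP, by 0.52 (SE 0.06). Srebf1 rose by 0.45 (SE 0.04). In the miR-137 line Srebf1 changed by -0.17 (SE 0.04) and Insig1 by 0.12 (SE 0.05) in the same comparison.

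Of 19 further synthesis, elongation and desaturation genes tested, 9 were lower and 3 higher in control cells, 7 and 4 in the miR-23b line, and 10 and 2 in the miR-137 line. The counts of the miR-23b line stand beside 28.6% lower and 28.8% higher among all genes. With total count scaling the miR-23b line had 8 higher in place of 4. The neighbours Scd4 and Scd3, with means of at most 3.13 and 2.02 CPM in any group, were lower in the miR-23b line (-2.07, SE 0.26, and -1.73, SE 0.26). Scd3 changed in the miR-137 line by -1.26 (SE 0.27) and Scd4 by -1.06 (SE 0.23). Fads3, which lies next to Fads2, went the other way from Fads1 and Fads2. It rose by 0.26 (SE 0.07) in control cells, 0.86 (SE 0.07) in the miR-23b line and 0.28 (SE 0.08) in the miR-137 line.

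Of 10 tested genes that supply precursors and NADPH, 4 were lower and 0 higher in control cells, 4 and 1 in the miR-23b line, and 5 and 0 in the miR-137 line. Slc25a1, the mitochondrial citrate carrier that feeds Acly, changed by -0.75, -1.25 and -0.50 in the control, miR-23b and miR-137 lines (SE 0.04 each). Idh1, a cytosolic source of NADPH, changed by -0.53, -0.71 and -0.28 in the same order. Me3, a mitochondrial malic enzyme gene, rose by 0.69 (SE 0.18) in the miR-23b line.

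Of 22 genes of fatty acid activation and glycerolipid assembly, 12 were lower and 2 higher in control cells, 15 and 5 in the miR-23b line, and 9 and 3 in the miR-137 line. Lpin3 (-1.92, SE 0.17), Gpat3 (-0.94, SE 0.16) and Lpin1 (-0.92, SE 0.04), genes of phosphatidate and glycerolipid synthesis, fell most in the miR-23b line. Plin2, a coat protein gene of lipid droplets, changed by -0.67 in control cells and -0.76 in the miR-137 line. Of 19 oxidation genes, 8 were lower and 0 higher in control cells, 12 and 6 in the miR-23b line, and 9 and 2 in the miR-137 line. Hadh, a mitochondrial beta-oxidation dehydrogenase gene, fell by 0.74 in the miR-23b line (SE 0.03), and Cpt1b, at under 1 CPM, rose by 1.17. On the TPM scale the sign of 1 called oxidation gene, Cpt2, was reversed in the miR-23b line (-0.15 against 0.02).

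Sterol synthesis genes moved most uniformly of the lists. All 16 were lower with DOX in each line, with a median of -0.73 in control cells, -1.01 in the miR-23b line and -0.84 in the miR-137 line. Of the 16, 14 fell further in the miR-23b line than in control cells and 0 less far. Among all genes 19.4% were called lower and 18.1% higher in that contrast. On withdrawal in the miR-23b line all 16 were called higher, where 26.4% of all genes were called higher and 25.8% lower. Of the 16, Dhcr7 (0.12) lost its call under 5 alternatives and was reversed on the TPM scale (-0.02). On withdrawal in the miR-137 line 2 were higher and 0 lower, where 14.7% of all genes were called higher and 14.8% lower. Fdps, which makes farnesyl diphosphate, changed by -1.19, -2.06 and -1.31 in the control, miR-23b and miR-137 lines and rose by 1.10 (SE 0.09) on withdrawal in the miR-23b line. Of 6 AMPK subunit genes, whose kinase inactivates acetyl-CoA carboxylase, 2 were lower in each line, with 2, 2 and 1 higher in the control, miR-23b and miR-137 lines, which with so few genes is near the shares of all genes.

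**Figure D4:**
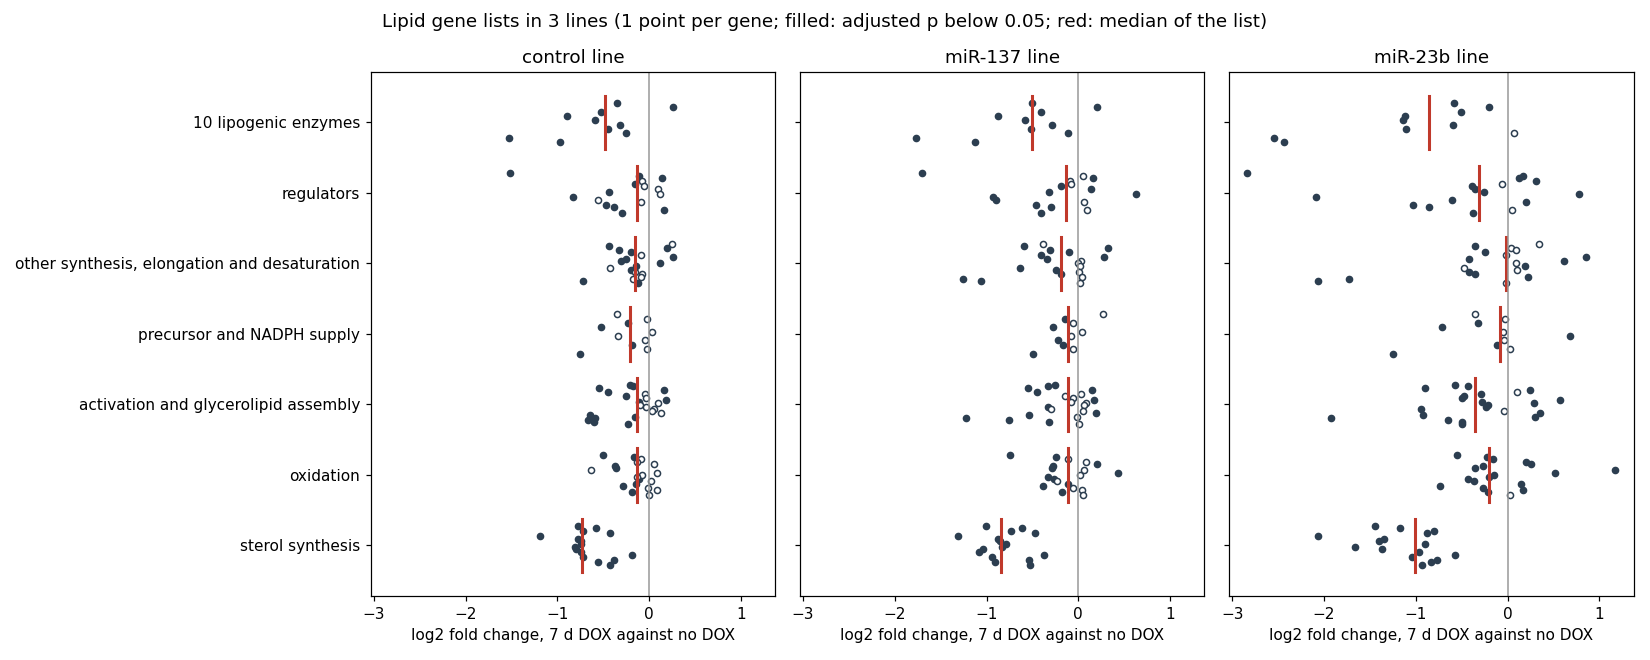
Log2 fold change of 7 d DOX against no DOX (horizontal axes, the same scale in all panels) for each tested gene of 7 lists in the control, miR-137 and miR-23b lines (filled points, adjusted p below 0.05; red bar, median of the list). In control cells 9 of the 10 enzymes and all 16 sterol synthesis genes lie to the left of 0, with medians of -0.48 and -0.73, and the medians of the other lists lie closer to 0.

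Across the 8 group means, 8 of the 10 followed the mean pattern of the other 9 closely. Pearson's r was 0.99 for Scd1 and Fads2, 0.97 for Acaca and Fads1, 0.96 for Fasn, 0.94 for Scd2, 0.92 for Acss2 and 0.89 for Elovl6. It was 0.28 for Me1 and -0.30 for Acly. The groups share their libraries between all genes, so these are descriptions. A search for similar patterns covered 10598 genes outside the 10, the context lists above and the cell markers below. Sterol synthesis genes, Insig1, Srebf1 and the other listed lipid genes could thus not appear in it. Among the genes searched, those most like the mean of the 10 over the 8 groups were Creb3 (r 0.9991), Dbi (0.9967), Neu1 (0.9953), Rufy2 (0.9944) and Atp6v0d1 (0.9922). Most like Scd1 were Neu1 (0.9973), Npc2 (0.994), Renbp (0.993) and Sord (0.9927).

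Since most of the 10 moved together and Acly and Me1 did not, promoters were compared. RefSeq windows of 300 bases around the transcription start (GRCm38.p6) were at hand for 7 of the 10, not for Scd1, Scd2 and Fads1. Me1 had 2 windows and the others 1, 8 in all. Both strands were searched for the sterol element core CACCCCAC, the E-box CACGTG, the NF-Y box CCAAT and the GC box GGGCGG, none of which contains another. CCAAT was present in 4 of the 8 windows, against 37.4% of 32851 promoters, and GGGCGG in 4 of the 8, against 35.7%. In Me1 each of them was in a different window. CACCCCAC (2.87% of promoters) and CACGTG (7.15%) were in 0 of the 8. The windows of Fasn (chr11:120824498-120824797, minus), which fell, and Acly (chr11:100527951-100528250, minus), which rose in control cells, are printed on the gene's strand with CCAAT or its reverse complement in capitals.
Fasn: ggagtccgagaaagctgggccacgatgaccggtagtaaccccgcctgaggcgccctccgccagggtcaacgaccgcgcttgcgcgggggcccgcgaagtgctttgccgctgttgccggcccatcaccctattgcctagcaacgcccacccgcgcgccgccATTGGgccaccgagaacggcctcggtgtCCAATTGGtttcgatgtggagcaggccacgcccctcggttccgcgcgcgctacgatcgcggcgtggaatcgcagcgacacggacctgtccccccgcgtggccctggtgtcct
Acly: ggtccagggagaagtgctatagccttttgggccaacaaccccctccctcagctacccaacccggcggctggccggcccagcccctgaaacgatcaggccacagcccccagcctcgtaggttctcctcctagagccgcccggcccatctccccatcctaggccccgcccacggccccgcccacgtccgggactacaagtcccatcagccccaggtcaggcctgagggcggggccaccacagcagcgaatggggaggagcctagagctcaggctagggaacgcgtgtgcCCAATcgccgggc

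Fasn holds 3 matches, a pair of them overlapping on opposite strands, and Acly holds 1. Acss2, which fell with DOX in each line, also holds 1, as does the second window of Me1. The windows of Acaca, Elovl6 and Fads2, which fell in each line as well, hold 0. Whether the matches bear on the response was not tested. A match is not a bound site, and no match says only that these letters are not in the window.

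The label of the cells was read from markers. All 12 beta cell genes on the list were tested, summing to 15950 to 20520 CPM per library. Of 6 adipocyte genes 0 had enough reads to test, their sum was at most 0.258 CPM in any library, and Lep and Cfd were at 0 in all. Exocrine genes (Cpa1, Cela1, Prss2, Amy2a5 and Krt19) summed to at most 1.2 CPM, with Prss2 and Amy2a5 at 0. Endothelial, leukocyte and fibroblast genes summed to at most 1.83, 4.22 and 4.58 CPM. The hepatocyte list moved with DOX, from a mean of 203 to 310 CPM in control cells, 262 to 452 in the miR-23b line and 244 to 411 in the miR-137 line. Its sum came from Ttr and Apob, while Alb was at most 2.63 CPM in any group mean and Cyp2e1 at most 0.0150. The part of these genes in the results was not tested. Libraries held 15759849 to 24144737 reads in genes, and each of the 10 genes had at least 148 reads in every library, with Elovl6 the lowest.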

How the data were processed

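Gene-level RNA levels were measured in 24 libraries of 8 groups, prepared with a stranded kit, with groups and replicate numbers from the labels. The deposited files of the single libraries hold raw read counts per gene, made by the authors and not normalized. Tools listed in the submitters' processing notes are STAR 2.4.0g, RSEM 1.2.19, featureCounts, HTSeq 0.6.1 and cutadapt 1.3, with the builds GRCm38 and mm10, and which of them made each table is not stated. A second deposited table was read as the authors' TPM, going by the sums of its columns, and served only as an alternative. Reads in no gene made up 9.62% to 12.1% of all reads, and reads aligned to several places 25.4% to 27.7%. Both were left out of library sizes.

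The count test was run with edgeR 4.0.16 under R 4.3.3 (filterByExpr, TMM, 1 quasi-likelihood model of 8 group means). The p-values were adjusted by Benjamini-Hochberg over 14866 genes in each of 12 comparisons, with genes called below 0.05. SE is the size of a log2 change over the square root of its F statistic. The common coefficient of variation was 3%. The fit was also run on simulated data with 200 changed genes, drawn as independent libraries with the spread of the fit. That run cannot show whether the libraries of a group are separate cultures. Named are all 10 members and, of the context lists, up to 3 called genes in each direction plus Srebf1 throughout, Insig1 on withdrawal, and Cpt2 and Dhcr7, chosen after their values were seen. Srebf2 and Mlxipl were also planned to be named whatever their values. Values of Srebf2, which was tested, are not given, and Mlxipl is given only for withdrawal in the miR-23b line. The members and lists were chosen with earlier results of these data known.

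Alternatives were RLE or total count scaling, no filter on low counts, a replicate block, only the groups compared, DESeq2 1.42.0, limma 3.58.1 on log2(TPM + 1), and leaving out each library. Patterns were compared over group means of logged CPM with a prior count of 2. Gene positions and UTRs are from GENCODE M21.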

Additional observations from a re-analysis of the deposited data

Results flagged for a closer look

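The DOX response differed between lines, by a test of the difference itself (an interaction contrast in edgeR's quasi-likelihood model, n = 3 libraries per group), for 8 of the 10 genes between the miR-23b and control lines. The log2 differences were -1.46 for Scd2, -1.02 for Scd1, -0.66 for Fasn, -0.55 for Fads1, -0.47 for Acly, -0.27 for Fads2 and -0.24 for Acaca, and 0.33 for Me1. Between the miR-23b and miR-137 lines 7 genes differed, by -1.31 (Scd2), -0.77 (Scd1), -0.59 (Fasn), -0.55 (Fads1), -0.41 (Acly), -0.30 (Fads2) and 0.19 (Me1). Between the miR-137 and control lines 3 genes differed, by -0.24 (Scd1), -0.15 (Scd2) and -0.16 (Acaca). Acly is set apart by opposite directions, 0.26 in control cells against -0.21 in the miR-23b line. Comparisons with the control response share the control libraries, and those with the miR-23b response share its libraries.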

How the results depend on the processing

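Of 840 recomputed log2 fold changes of the 10 genes under 7 whole-fit alternatives, 811 kept direction and side of the threshold, 20 lost their call, 9 gained one and 0 were reversed. On leaving out 1 library, 861 of 900 kept both, 36 lost a call, 3 gained one and 0 were reversed. Same-numbered libraries of different groups deviated together weakly at most (median r 0.0274 over 84 pairs, from -0.0661 to 0.183, 3 of them over 0.1). For differently numbered libraries the median was -0.0138 over 168 pairs, with a highest r of 0.0883 and 0 over 0.1. Whether the numbers pair the cultures is not settled by this, and the main fit had no block. Over all genes a replicate block gave more calls in every comparison. With a replicate block all 120 values kept their call, with 10 genes called in control cells, 9 in the miR-23b line and 10 in the miR-137 line with DOX.

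Small counts moved most. The count of genes whose miR-137 response differed from control was 3, but 1 under DESeq2 and 1 by limma on the TPM scale, and 0 to 3 on leaving out 1 library. For withdrawal in the miR-137 line it was 0, and 0 to 1 on leaving out 1 library. For the miR-23b line against control without DOX it was 6, but 2 by limma, and 3 to 6 on leaving out 1 library. For the miR-137 line against control without DOX it was 1, but 2 under DESeq2, 3 without a filter on low counts, 2 with only the groups compared, 0 by limma, and 0 to 1 on leaving out 1 library. The cause was not tested.

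Over all genes the share of calls that were higher shifted by over 10 points with scaling or filter. For miR-23b DOX it was 50.2%, 61.4% with total counts and 67% by limma. For the miR-23b difference from control it was 48.3%, 58.5% and 69.9%, and from miR-137 47.8%, 59.2% and 73.9%. For the miR-23b line against control without DOX it was 56.3%, 37.7% and 33.7%, and all calls fell from 533 higher and 414 lower to 143 and 281 by limma. For the miR-137 line there it was 69.9%, 52.2% with total counts and 57.1% with only the groups compared, and calls fell from 281 and 121 to 95 and 57 by limma. For the miR-137 difference from control it was 55.2%, and 66.5% without a filter. By limma, miR-23b withdrawal against DOX went from 50.6% to 27.8% and miR-137 withdrawal against no DOX from 49.9% to 39.5%. The median of all genes was at most 0.0826 from 0 in any setting.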
